A study of Mus musculus with 2 samples.

Results

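The 42 genes described here belong to the interferon response, the complement system and the presentation of antigen by the major histocompatibility complex (MHC), and were taken from a fixed list of names. They were followed in the striatum, the brain region with the densest D2-type dopamine receptors, of male mice aged 2 months and of C57BL/6 background that had received no treatment. One group was wild type and the other Drd2-/-, lacking the D2 receptor gene, and each was measured on 1 Affymetrix expression array. The sources used here do not say whether an array held RNA of 1 animal or of a pool, nor how the Drd2-/- allele was made. A probe set, the group of short probes that reads 1 transcript, was used where the platform annotation pairs it with 1 listed gene alone. By this rule 38 of the 42 genes had 72 probe sets, out of 18193 genes with a probe set of their own on the array. Isg15 and C4b were paired only with probe sets that also name another gene, and Ifi44 and C3 were paired with none in the annotation used.

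Interferons bind cell-surface receptors whose kinases activate STAT proteins, and STATs with interferon regulatory factors then switch on genes that block viruses and raise antigen presentation. Complement is a cascade of plasma proteins that in the brain also tags synapses for removal by microglia. MHC class I molecules display peptides on most cells, and class II molecules do so on specialised immune cells. In healthy brain most of these genes are expressed at low levels, chiefly by microglia, endothelial cells and astrocytes.

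With 1 array per group no value has a replicate error and no difference was tested. All values below are signals in arbitrary units or log2 ratios of Drd2-/- to wild type, and they describe these 2 arrays. Drd2 itself gave 3234.8 units under the wild-type label, where it was called present, and 27.4 units under the Drd2-/- label, where it was called absent, but where its probes lie relative to the deleted stretch is unknown here. In the authors' deposited table the same signals stand under the opposite genotype names at all 45101 probe sets. The sample labels were followed and that table's log ratios and calls were turned to them. Under its own names every sign below would be reversed. Drd2 would then be called absent in wild-type striatum, at 27.4 units, and present in Drd2-/-, at 3234.8 units, so its reading goes with the sample labels. The arrays called 57.9% (wild type) and 58.7% (Drd2-/-) of probe sets present. Transcripts that mark striatal neurons were plentiful, with 7 of 7 measured markers detected and a summed signal of 94462 (wild type) and 93661 units (Drd2-/-). In tissue of mixed cells, fewer cells of a type and less RNA per cell cannot be told apart.

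As scaled by the authors, the detected genes of the list differed between the arrays in both directions and had a median near that of all genes. A gene was represented by its brightest probe set and counted as detected when that probe set was called present on at least 1 array, which held for 26 of 38 genes (68.4%, against 69.2% of all genes). Gbp3 and Oas2 were higher in Drd2-/- by 1.5-fold or more, and Gbp2 and Mx1 lower by as much, which is 7.69% each way. Among all 12588 detected genes, 9.18% were as much higher and 3.38% as much lower. The other 22 genes (84.6%, against 87.4%) lay within 1.5-fold. At 2-fold, Oas2 was higher and Mx1 lower, against 3.12% and 0.818% of all detected genes, and neither was 2-fold apart once 32 units were added to every signal. The median log2 ratio of the 26 was -0.08 and that of all detected genes -0.06, and 15 of the 26 lay below 0 (57.7%, against 57.1% of detected genes, or 59.0% of genes present on both arrays). After quantile normalization, which forces both arrays to 1 distribution, the balance moved to the lower side. There Gbp3 and Oas2 were still 1.5-fold higher, 5 of the 26 genes (19.2%) were as much lower, against 6.05% and 7.21% of all detected genes, and 22 lay below 0 and 4 above. The median of the 26 was then -0.24, against -0.10 for all detected genes. Over all genes the share of higher among those 1.5-fold apart was 45.7% instead of 73.1%.

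**Figure D1:**
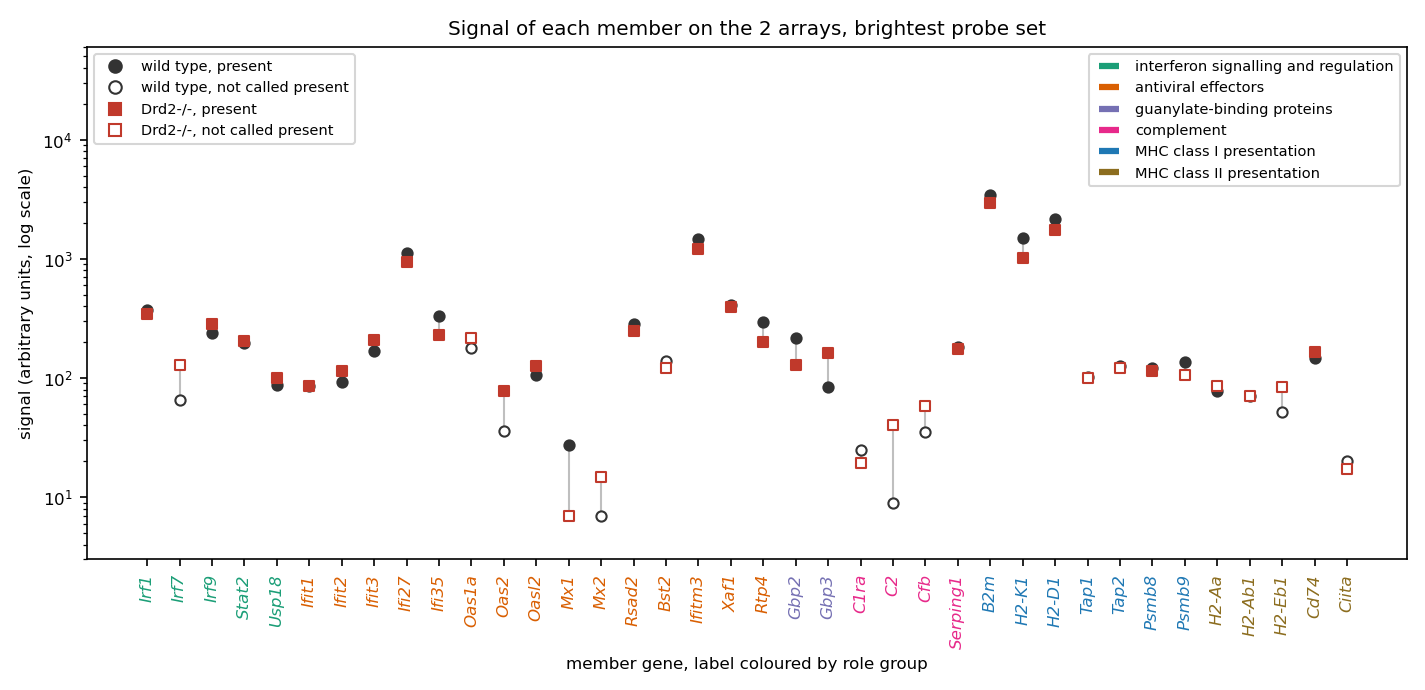
Signal of the 38 measured genes on the wild-type array (circles) and the Drd2-/- array (squares) on a log scale in arbitrary units, with filled symbols where the probe set was called present and gene names coloured by role. Most paired symbols lie close together. Among detected genes those of Mx1, Oas2, Gbp2 and Gbp3 lie apart by 1.5-fold or more. Among genes called absent on both arrays, so do those of C2, Mx2, Irf7, Cfb and H2-Eb1, all with the higher signal in Drd2-/-.

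The ratio varied with brightness, for these genes as for all others. The 12588 detected genes were divided by mean signal into 4 bins of 3147. The dimmest bin, up to a mean signal of 229.8 units, held 15 of the 26, including all 4 that were 1.5-fold apart. In that bin 20.4% of all genes were as much higher, 7.94% as much lower and 37.3% below 0, and 5 of the 15 members were below 0. The median log2 ratio of the 15 was 0.03, against 0.06 for the bin. None of the 11 brighter members was 1.5-fold apart, where 8.01%, 5.91% and 2.38% of all genes in the second, the third and the brightest bin were as much higher and 3.11%, 1.87% and 0.604% as much lower. Of these 11 members, 5 of 6 in the second bin, 3 of 3 in the third and 2 of 2 in the brightest lay below 0, against 55.2%, 63.4% and 72.4% of all genes. Their medians were -0.15, -0.27 and -0.26, beside -0.05, -0.10 and -0.14 for the bins.

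**Figure D2:**
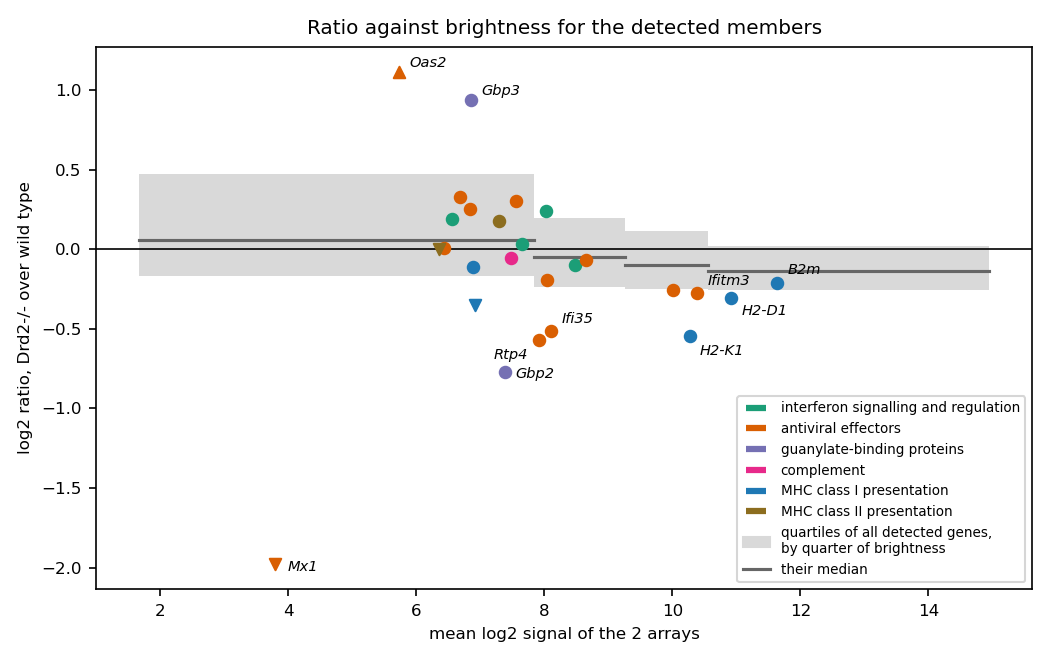
Log2 ratio of Drd2-/- over wild type against the mean log2 signal of both arrays for the 26 detected genes, coloured by role, with triangles for bounds. Grey bands show the quartiles of all detected genes in each of 4 bins of brightness, and their median line runs from 0.06 in the dimmest bin to -0.14 in the brightest.

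The 4 detected members that carry or regulate the interferon signal read almost alike on both arrays. Receptors and kinases outside the list are given further below. Stat2, which joins Irf9 to form the factor that binds interferon-stimulated promoters, read 198.4 units in wild type and 202.9 in Drd2-/-. Its partner Irf9 read 240.6 and 284.4 units, a log2 ratio of 0.24. In the authors' deposited table Irf9 had a log ratio of 0.3 with limits of 0.1 and 0.5 and was called unchanged. Irf1, a regulator induced above all by interferon gamma, read 370.6 and 346.4 units. Usp18, which strips ISG15 from proteins and restrains the interferon receptor, read 88.1 and 100.3 units. All 4 lay within 1.5-fold, between -0.10 and 0.24. A second probe set of Stat2 was present in wild type at 97.6 units and absent in Drd2-/- at 69.4, so it gave at most -0.49. Irf7, the factor that amplifies interferon production, was called absent on both arrays at 65.4 and 127.9 units, and no ratio is given for it. The probe set that reads both Isg15, a ubiquitin-like modifier, and Gm9706 gave 221.1 units and present in wild type and 170.2 units and absent in Drd2-/-, a value that belongs to neither gene alone.

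The antiviral effectors split between both directions. Of 16 listed, 15 were measured and 12 detected, with 5 above 0 and 7 below 0 and a median of -0.13. The 3 Ifit genes, whose proteins bind viral RNA, were on the higher side as scaled by the authors, but Ifit1 and Ifit2 lay below 0 after quantile normalization, and Ifit1 also after centring by brightness and in the authors' deposited table. Ifit1 read 85.7 units in wild type and 86.3 in Drd2-/-, Ifit2 read 91.7 and 115.2, and Ifit3 read 169.6 and 208.8, with log2 ratios of 0.01, 0.33 and 0.30. In the authors' deposited table Ifit3 had a log ratio of 0.2 with limits of 0.1 and 0.4 and was called unchanged. Oasl2, a relative of the oligoadenylate synthetases, read 105.1 and 125.0 units.

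The brighter effectors were on the lower side. Ifitm3, a membrane protein that hinders viral entry, read 1469.4 units in wild type and 1214.7 in Drd2-/-, a log2 ratio of -0.27. Ifi27 read 1123.8 and 942.5 units, and its probe sets gave -0.25 and -0.29. Rtp4, an interferon-induced gene whose protein also helps some receptors reach the cell surface, read 295.4 and 199.0 units. Its log2 ratio of -0.57 was just short of 1.5-fold, while the authors' deposited table gave -0.1 with limits of -0.4 and 0.2. Ifi35 read 329.2 and 230.5 units (-0.51) by its brightest probe set, but another gave 0.24 at 124.8 and 147.9 units. Rsad2, which encodes viperin, read 282.1 and 246.6 units (-0.19), whereas a dimmer probe set gave 0.86 at 38.2 and 69.5 units. Xaf1, a promoter of cell death, read 411.8 and 393.1 units. For Ifi35 and Rsad2 the direction therefore depends on the probe set.

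The largest ratios among the effectors came from genes near background. Mx1 encodes an antiviral GTPase that C57BL/6 mice, like most laboratory strains, cannot make in working form. It read 27.6 units and present in wild type and 7.0 units and absent in Drd2-/-, at least 3.94-fold lower, but with 32 units added to every signal the log2 ratio was -0.61 instead of -1.98. Such a bound sets the bright signal against the higher of the dim probe set's own signal and the lowest present signal of that array, 5.0 units in wild type and 5.9 in Drd2-/-. In the authors' deposited table Mx1 had a log ratio of -2.3 with limits of -4.1 and -0.5 and was called unchanged. Oas2, which makes the oligoadenylates that activate RNase L, read 36.2 units and absent in wild type and 78.4 units and present in Drd2-/-, at least 2.17-fold higher (a log2 ratio of at least 1.11). With 32 units added it was 0.69, after quantile normalization 0.67 and after centring by brightness 0.94. The authors' deposited table gave Oas2 only 0.2, with limits of -0.8 and 1.2, so this bound is not firm. Oas1a, Mx2 and Bst2, the gene of the virus-tethering protein tetherin, were absent on both arrays, at 177.5 and 217.7, 6.9 and 14.8, and 137.8 and 122.1 units in wild type and Drd2-/-.

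The guanylate-binding proteins Gbp2 and Gbp3, interferon-induced GTPases that attack compartments holding microbes, lay on opposite sides. Gbp2 gave signals of 218.5 units (wild type) and 128.3 units (Drd2-/-), so it was 1.70-fold lower. Its second probe set read 160.4 and 92.0 units, and the log2 ratios were -0.77 and -0.80. Gbp3, measured by 1 probe set, read 83.8 and 160.7 units, 1.92-fold higher. Both were smaller, and called unchanged, in the authors' deposited table. There the first Gbp2 probe set had -0.3 with limits of -0.6 and 0.1, the second -0.6 with limits of -1.3 and 0.0, and Gbp3 had 0.4 with limits of 0.0 and 0.7. The genes sit in 1 cluster on chromosome 3, where RefSeq's gene table (GRCm38.p6) places Gbp2b between them.

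The promoters of both genes hold a match to the sequence bound by interferon-activated factors, and so do those of members that hardly differed between the arrays. The promoters of 28 members, from 250 bases before to 50 after a gene's start, were found in the RefSeq table (GRCm38.p6). They were searched on both strands for the core of the interferon-stimulated response element (GAAA, any 2 bases, GAAA) and for that of the gamma-activated site (TTCNNNGAA). The first was found in 11 of the 28 (39.3%), against 3.99% of 27025 genes with a promoter in the table, and the second in 8 (28.6%, against 9.55%). The motifs overlap each other in 24 of all 32851 promoters. Of the 11 members with the response element core 8 were detected, 4 above 0 and 4 below, with a median log2 ratio of -0.09. The 11 detected members with a promoter lacking it had a median of -0.10, with 3 above 0, 7 below and H2-Aa at 0. The sequences of Gbp2, Gbp3, Ifit1 and B2m are shown because they hold the same core while their ratios ran from -0.77 to 0.94. Capitals mark each match, read 5′ to 3′ on the gene's strand. A match is a description of the letters, not evidence of binding, and a second listed start of Gbp3 had no match.
Gbp2 promoter, chr3:142620413-142620712, + strand, GRCm38.p6: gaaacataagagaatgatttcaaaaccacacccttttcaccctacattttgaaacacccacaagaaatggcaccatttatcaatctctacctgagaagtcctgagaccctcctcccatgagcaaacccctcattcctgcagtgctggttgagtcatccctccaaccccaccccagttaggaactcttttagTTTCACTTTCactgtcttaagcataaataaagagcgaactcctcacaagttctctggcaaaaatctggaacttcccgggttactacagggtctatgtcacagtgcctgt
Gbp3 promoter, chr3:142559794-142560093, + strand, GRCm38.p6: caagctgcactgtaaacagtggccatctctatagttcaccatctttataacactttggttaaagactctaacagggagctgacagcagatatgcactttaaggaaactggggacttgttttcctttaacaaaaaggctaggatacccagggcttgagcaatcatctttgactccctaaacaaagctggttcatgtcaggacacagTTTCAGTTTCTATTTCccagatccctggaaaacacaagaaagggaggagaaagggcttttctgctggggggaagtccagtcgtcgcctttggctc
Ifit1 promoter, chr19:34640639-34640938, + strand, GRCm38.p6: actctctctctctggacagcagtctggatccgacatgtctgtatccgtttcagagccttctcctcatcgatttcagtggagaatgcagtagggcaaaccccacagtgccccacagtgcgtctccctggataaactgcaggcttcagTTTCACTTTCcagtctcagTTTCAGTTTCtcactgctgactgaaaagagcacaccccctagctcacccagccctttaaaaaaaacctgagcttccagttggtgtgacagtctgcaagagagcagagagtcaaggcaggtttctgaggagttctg
B2m promoter, chr2:122147437-122147736, + strand, GRCm38.p6: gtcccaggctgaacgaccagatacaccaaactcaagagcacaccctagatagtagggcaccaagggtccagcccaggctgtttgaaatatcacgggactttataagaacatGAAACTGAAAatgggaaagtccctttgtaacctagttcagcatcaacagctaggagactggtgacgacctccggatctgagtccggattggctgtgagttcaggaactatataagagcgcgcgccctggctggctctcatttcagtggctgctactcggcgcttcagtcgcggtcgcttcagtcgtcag

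The 5 detected MHC class I genes were lower in Drd2-/- by small amounts as scaled by the authors. A probe set shared by H2-K1 and H2-D1, described at the end, read higher. B2m, the light chain of every class I molecule, read 3418.3 units in wild type and 2956.8 in Drd2-/-, with log2 ratios of -0.21 and -0.05 from its 2 probe sets. The heavy chain gene H2-K1 read 1492.7 and 1021.1 units (-0.55), and its other probe sets present on both arrays gave -0.64 and -0.22. The heavy chain gene H2-D1 read 2150.3 and 1740.0 units (-0.31), with -0.39 and -0.08 from its other probe sets present on both arrays, and a dim one read 83.1 units and present in wild type and 89.4 and absent in Drd2-/-. As scaled by the authors, all 5 detected class I genes lay below 0, at a median of -0.31. So did all 9 of their probe sets present on both arrays, which belong to 4 genes, against 52.2% of such probe sets over all genes. By gene, the share below 0 depended on brightness. It was 72.4% in the brightest bin, which holds B2m and H2-D1, 63.4% in the third, which holds H2-K1, and 37.3% in the dimmest, which holds Psmb8. Psmb8 alone of the 5 genes lay above 0 in the authors' deposited table, at 0.2 with limits of -0.8 and 1.1. H2-K1 and H2-D1 lay below the lower quartile of all genes in their brightness bins (-0.25 in each), and B2m above it. Microglia, which express class I genes, had all 17 measured markers detected, 12 below 0 and 5 above. Of all detected genes 57.1% lay below 0, and 55.2%, 63.4% and 72.4% in the second, the third and the brightest bin. The microglial markers had a median of -0.18 and a summed signal of 24920 units in wild type and 22414 in Drd2-/-. The part of microglia in the class I values was not tested.

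Psmb8 and Psmb9, subunits of the immunoproteasome that cuts peptides for class I, read 122.4 and 113.5 units (-0.11), and 135.9 and 106.7 units. The Drd2-/- call of Psmb9 was marginal. The peptide transporter genes Tap1 and Tap2 were absent on both arrays by their brightest probe sets, at 101.0 and 99.7 and at 125.4 and 120.8 units, although a dimmer Tap1 probe set was called present in Drd2-/- alone, at 1.6 and 20.7 units. In the authors' deposited table H2-D1 alone of the 26 was called changed. It had a log ratio of -0.5 with limits of -0.6 and -0.3 and was called decreased, as were 5.67% of all detected genes, while 8.79% were called increased. A second H2-D1 probe set was also called decreased there (-0.4), and H2-K1 read -0.3 with limits of -0.5 and -0.2, called unchanged. Both limits lay below 0 for Mx1, B2m, H2-K1 and H2-D1, 4 of the 26, against 22.6% of all detected genes, and above 0 for Irf9 and Ifit3, against 13.3%. Of the 13 probe sets of H2-K1 and H2-D1, 11 are of the kind marked by the manufacturer as holding probes that match other transcripts, including all 6 present on both arrays. Class I heavy chains are near-identical in places, so these signals may mix several of them. When such probe sets were left out, an alternative chosen after seeing the data, H2-K1 had none left, H2-D1 kept only the dim one, with no direction and a log2 ratio of 0.00, and the class I median was -0.16. Neither heavy chain gene therefore kept a reading with a direction, so this alternative cannot say whether either was lower.

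**Figure D3:**
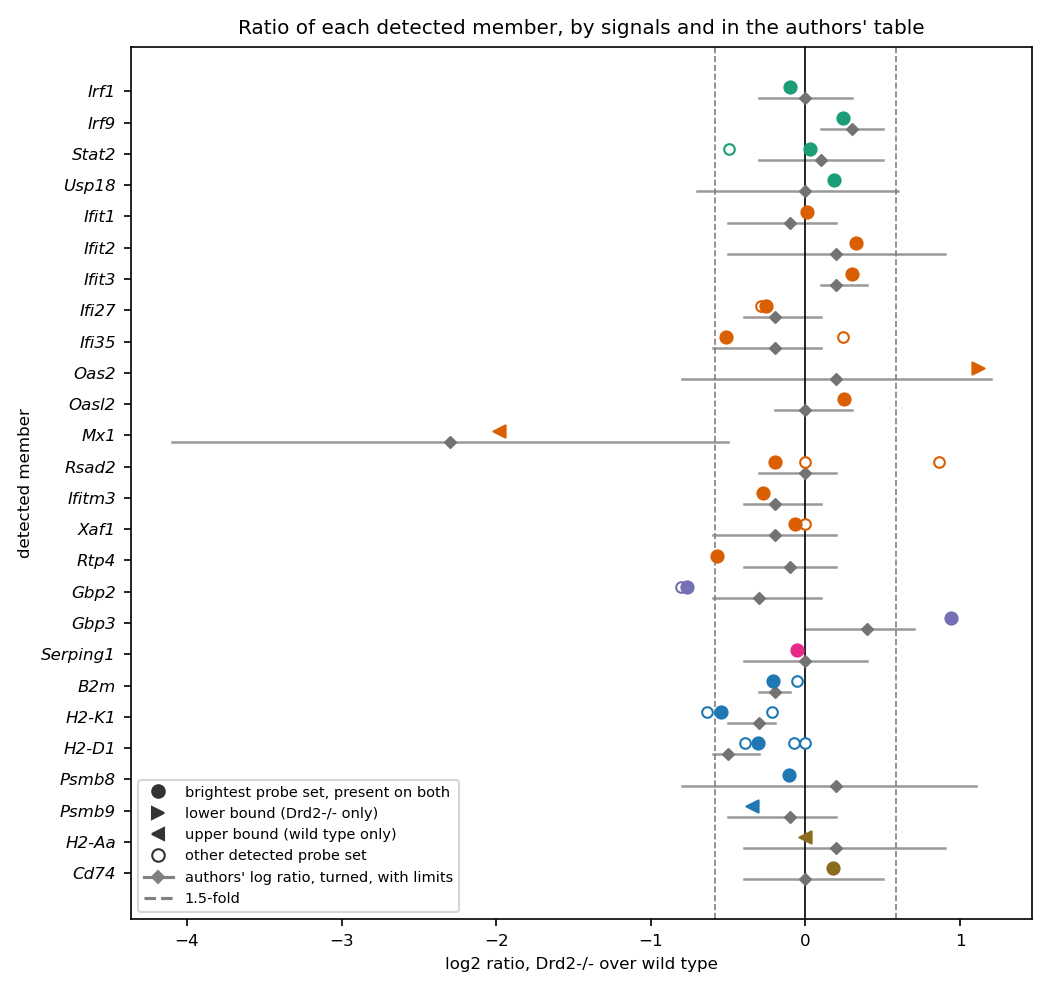
Log2 ratio of Drd2-/- over wild type for the 26 detected genes: coloured filled symbols are the brightest probe sets, open circles other detected probe sets, and grey diamonds with bars the authors' deposited log ratio and its limits. Dashed lines mark 1.5-fold; Gbp2, Gbp3, Mx1 and Oas2 lie outside them, and the authors' value is outside only for Mx1.

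MHC class II genes stayed close to background. Cd74, the invariant chain that guides class II molecules to their peptides, was the sole member of its group present on both arrays, at 147.4 units in wild type and 166.5 in Drd2-/-. The class II chain gene H2-Aa read 78.2 units and present in wild type and 86.4 and absent in Drd2-/-, so it has no direction. The chain genes H2-Ab1 and H2-Eb1 were absent on both arrays, at 71.1 and 70.3 and at 51.8 and 83.3 units. A second H2-Ab1 probe set, absent on both arrays at 30.1 and 78.1 units, was called increased in the authors' deposited table. Ciita, the master regulator of class II transcription, was absent by its brightest probe set at 20.3 and 17.1 units, and present in wild type alone by another, at 43.2 and 7.0 units. Of the cells that can carry class II, dendritic cells had 2 of 5 measured markers detected, B cells 1 of 5, border macrophages 5 of 8 and microglia 17 of 17, and their part in these values was not tested.

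Complement was represented by few readable members. Serping1, the inhibitor of the first complement proteases, read 181.7 units in wild type and 174.7 in Drd2-/-, a log2 ratio of -0.06. The proteases C1ra, C2 and Cfb were absent on both arrays, at 24.8 and 19.5, 8.9 and 40.7, and 35.3 and 57.8 units. The probe set that reads both C4b and its near-identical neighbour C4a was present on both arrays at 722.6 and 698.1 units, and cannot be given to either gene.  Clu, the chaperone clusterin, and the C1q chains were among 15 detected of 19 measured genes in a list of other complement genes and regulators, which had a median of -0.25 with 3 above 0 and 11 below. The C1q chains C1qa, C1qb and C1qc, made by microglia, read 2595.0, 2031.4 and 1626.3 units in wild type and 2178.1, 1959.5 and 1312.4 in Drd2-/-. Their log2 ratios were -0.25, -0.05 and -0.31. Of all detected genes 57.1% lay below 0, and 63.4% and 72.4% in the third and the brightest bin. Cfp, of the same list, ran the other way at 223.5 units in wild type and 322.2 in Drd2-/- (0.53). In the authors' deposited table Cfp was called increased and C1qc decreased.

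Other genes of the same pathways also split. Of 135 genes in 6 further lists 111 were measured and 85 detected, of which 9 (10.6%) were at least 1.5-fold higher and 6 (7.06%) as much lower, with a median of -0.01. Over all detected genes the shares were 9.18% and 3.38%. Among interferon-induced genes Gbp7, next to Gbp3 in the chromosome 3 cluster, read 68.2 units in wild type and 164.5 in Drd2-/- (1.27). The GTPase gene Iigp1 read 83.4 and 147.0 units (0.82). Both were called increased in the authors' deposited table, Gbp7 at 0.9 with limits of 0.5 and 1.4. Herc6, which attaches ISG15 to proteins in the mouse and is named after its values were seen, read 0.79, with other probe sets at 0.84 and 1.36. On the lower side Ifitm1, a relative of Ifitm3, read 291.6 and 148.3 units (-0.98) and Slfn5 at most -1.16. The authors' deposited table called Herc6, Ifitm1 and Slfn5 unchanged. It gave Herc6 0.9 with limits of 0.8 and 1.0, Ifitm1 -0.5 with limits of -1.0 and 0.0, and Slfn5 -0.8 with limits of -1.5 and -0.1.

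Receptors and kinases had a median of 0.16 over 15 genes, with the kinase Jak2 at 0.59, the phosphatase Ptpn2 at 0.61 and the feedback inhibitor Socs3 at -0.78 (0.0 in the authors' deposited table). Among sensors and adaptors Tlr3, a receptor for viral RNA, read 0.69. The RNA-activated kinase gene Eif2ak2 gave at least 1.30 by its brightest probe set but 0.01 and 0.47 by others. Of the complement genes, the protease Cfi gave at least 1.18, Cd55, which dismantles complement enzymes on cell surfaces, gave -0.68 by one probe set and 0.68 by another, and Itgb2, a chain of the complement receptors, read -0.64. In the class I pathway Tapbpl read -0.78 and the peptide-trimming enzyme gene Erap1 at least 0.86, with a median of -0.27 over 13 genes. The list of 9 detected class II pathway genes had a median of -0.28, with none 1.5-fold apart. Of the genes named in this paragraph, Jak2, Eif2ak2 and Cfi alone were called changed in the authors' deposited table, each as increased. Jak2 had a log ratio of 0.5 there, with limits of 0.2 and 0.8, and its other detected probe set gave a log2 ratio of 0.84.

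Markers of other cell types that could express these genes were followed beside them. Endothelial markers had a median of -0.09 over 7 detected of 9, with sums of 3502 and 3581 units, and astrocyte markers -0.06 over 9 of 9, with sums of 49572 and 48560. Border macrophage markers had a median of -0.12 over 5 of 8, pericyte and smooth muscle markers 0.19 over 7 of 8, fibroblast and meningeal markers 0.19 over 6 of 7, and choroid plexus markers 0.05 over 5 of 7, whose signals summed to 3927 (wild type) and 6359 units (Drd2-/-). Most of that gap was Ttr, at 2985.2 and 5347.5 units, while Folr1 (0.02) and Clic6 (0.05) were close to 0. No T or NK cell marker out of 8 and no red blood cell marker out of 2 was called present on either array. Of the 5 B cell markers Ighm alone was detected, at -0.52. Of the dendritic cell markers Itgax, at 20.6 and absent in wild type and 67.7 and present in Drd2-/-, gave at least 1.72. The authors' deposited table gave it 1.8 with limits of 1.3 and 2.3 and called it unchanged. Zbtb46, the other one detected, read 0.09, with other probe sets at -0.33 and -0.02. Of 6 neutrophil and monocyte markers 2 were detected, Ngp at no less than 0.72 and S100a8 at 0.36. Oligodendrocyte markers had a median of -0.31 over 7 genes, 6 of them below 0, with sums of 79065 and 69103 units and Opalin at -0.52, Ermn at 0.50 and Mog at -0.44. Cortical neuron markers had a median of -0.58 over 8 detected of 9, 5 of them below 0, with sums of 14102 and 14493 units. Of all detected genes 57.1% lay below 0, and 72.4% in the brightest bin. The lowest cortical markers were Neurod6 at -2.51, Tbr1 at most -2.12 and Slc17a7 at -1.62. Whether these other cells bear on any ratio above was not tested.

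**Figure D4:**
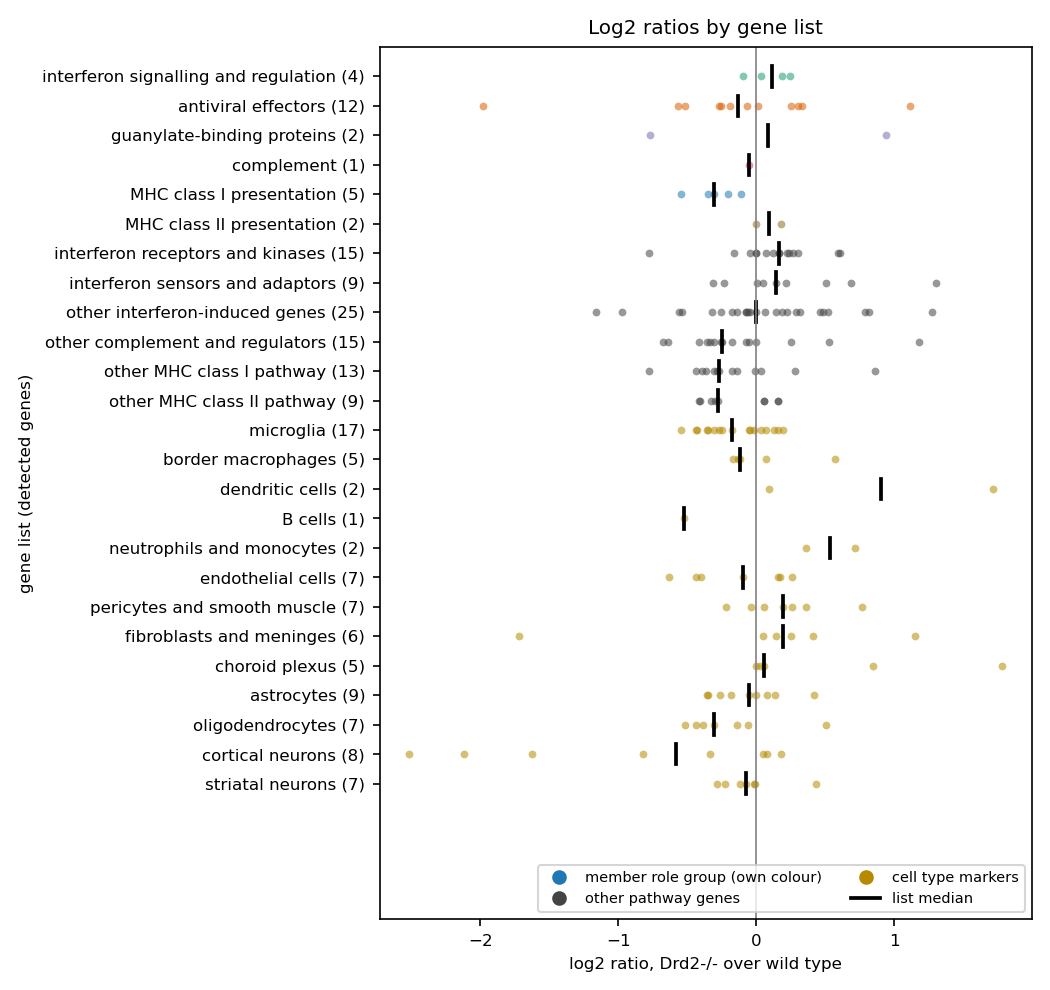
Log2 ratio of Drd2-/- over wild type for each detected gene (points) of the 6 role groups, 6 further pathway lists and 13 marker lists, with the number of detected genes in brackets and black bars for list medians. The 3 further lists of complement, class I and class II genes have medians between -0.28 and -0.25, and those of receptors and sensors 0.16 and 0.14.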

How the data were processed

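Signals came from the value table by sample label. Per the file headers, the authors deposited 1 linear signal intensity per probe set, scaled per array, with detection calls and a log2 Signal Log Ratio with limits and change calls. The software and its settings are not given in the sources used here. The comparison table repeats these signals under opposite genotype names, so each detection call went to the array whose signal stood beside it, and the authors' log2 ratios were turned. Limits and change calls compare probes of 2 arrays, not animals.

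The platform annotation pairs 34945 probe sets with 1 gene, 932 with several and 9160 with none, 64 controls aside. Each gene was represented by its brightest probe set (mean log2 signal), and signals under 0.1 were set to 0.1. With 1 array per group there is no test; genes are counted by size, at 1.5-fold, beside the same count over all detected genes. The precision is limited by the number of arrays. The calculation was tested on simulated data. Python 3.11.15, pandas 2.3.3, statsmodels 0.14.6 and matplotlib 3.10.9 were used.

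The genes, lists and naming rule were chosen with earlier results of these data known. All members are named. Of other lists, up to 4 genes per pathway list that were 1.5-fold apart and up to 3 per marker list with a median at least 0.3 from 0 are named. The C1q genes, Clu, Cfp, Herc6 and the choroid plexus markers are named beyond this rule, having been picked with their values in view.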

Additional observations from a re-analysis of the deposited data

How the results depend on the processing

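No paired analysis was possible because each group has 1 array and the labels give no replicate numbers; no replicate can be left out either. As reported, 2 of the 26 genes were 1.5-fold or more higher and 2 lower, with a median of -0.08. After quantile normalization 5 were lower (19.2%, against 7.21% of all genes), 22 lay below 0 and the median was -0.24 (all genes -0.10). Over genes present on both arrays 1 of 22 was higher and 1 lower, against 8.06% and 2.57% of all such genes. With no filter on detection 7 of 38 were higher (18.4%, as were 18.4% of all genes), the added ones being called absent on both arrays. By the second brightest detected probe set, which 9 genes have, 0 were higher and 1 lower, with a median of -0.22. Over all genes with such a probe set the shares were 15.4% and 3.32%. By the authors' deposited log ratio, turned to the sample labels, 0 were higher and 1 lower, against 8.05% and 1.87% of all detected genes. The other alternatives run (median centring, intensity-dependent centring with a lowess span of 0.2, 32 units added, the median over detected probe sets, and, added after seeing the data, leaving out probe sets that match other transcripts) kept each count within 1.5 times and the median within 0.1. Gbp2 stayed below 0 in 10 of 10 alternatives and Gbp3 above 0 in 9 of the 9 that could be run for it, from -1.04 to -0.30 for Gbp2 and from 0.40 upward for Gbp3. With 32 units added, Mx1 moved from -1.98 to -0.61 and Oas2 from 1.11 to 0.69. The class I median stayed below 0 in 10 of 10, between -0.44 and -0.16. The cause of these shifts was not tested, beyond fewer genes entering some alternatives.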

Other observations

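Some probe sets name a listed gene together with others and enter no count above. The probe set shared by H2-K1 and H2-D1 read 183.1 units in wild type and 245.1 in Drd2-/-, present on both arrays, and so ran opposite to the probe sets of either gene alone that were present on both arrays, but the authors' deposited log ratio for it was -0.1, with limits of -0.6 and 0.3. The one shared by H2-K1 and H2-Q5 was absent on both, at 48.4 and 115.6 units, and was called increased in the authors' deposited table. The one shared by C1ra and C1rb was absent in wild type at 0.6 units and present in Drd2-/- at 16.0 units.

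Where several probe sets of a gene were present on both arrays, which held for 7 of the listed genes, their log2 ratios spanned a median of 0.31, close to the 0.34 over all 5484 such genes. The widest span, 1.06, was that of Rsad2.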
